A study of Mus musculus with 12 samples.

Results

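Rotenone was compared with no treatment in mouse embryonic stem (mES) cells by RNA sequencing, as gene levels in TPM (transcripts per 1000000 transcripts). A gene was a member of the comparison if it reached 1 TPM in at least 2 of the 4 control and rotenone libraries, which 15892 of the 53715 genes in the mES table did. The mES cells came from the inner cell mass and were either untreated (2 libraries) or treated with rotenone (2 libraries); further mES groups of 2 libraries each received CX-5461, which inhibits transcription of ribosomal DNA by RNA polymerase I, or rapamycin, which inhibits the mTOR kinase, and serve here to show where rotenone differed from another treatment and to estimate the spread between libraries, to which all groups contribute. All groups were grown on mouse embryonic fibroblast (MEF) feeder cells in LIF/2i medium, which holds cells in the naive state by means of leukemia inhibitory factor and inhibitors of the kinases MEK and GSK3, and the feeders were depleted before extraction of poly-A RNA. The labels give no dose or time for rotenone, and the study describes a single dose and exposure, so neither a dose response nor a time course could be examined. The study describes the replicates as biologically independent, while the labels name no separate cultures; p-values measure the spread between these samples, whatever its source.

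Rotenone is a plant compound that blocks electron transfer from complex I of the respiratory chain to ubiquinone. Complex I is built from subunits encoded in the nucleus and in mitochondrial DNA and passes electrons from NADH into the chain that drives ATP synthesis. Rotenone also binds tubulin, the dimer of alpha and beta subunits that makes up microtubules, and hinders its assembly. Mammalian cells match tubulin mRNA to unassembled tubulin: a surplus of free dimers leads to decay of tubulin mRNAs on the ribosome, through recognition of the first residues of the newly made chain. Mitochondrial faults are relayed by a different route, in which, as worked out in human cells, the protease OMA1 and its substrate DELE1 activate the kinase HRI (gene Eif2ak1), eIF2alpha is phosphorylated and the transcription factor ATF4 is translated.

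The alpha and beta tubulin genes fell in a larger share of their members than those of any other list examined, and the first 30 coding bases of those with the largest shifts are shown because the signal for tubulin mRNA decay is encoded there. They were read from GENCODE M21 transcripts on GRCm38, from 5′ to 3′, with the first 4 codons in capitals; Tubg1, which encodes gamma-tubulin of the centrosome, stands beside them for contrast.
Tuba3a: ATGCGTGAGTGTatctctatccacgtgggg
Tuba3b: ATGCGTGAGTGTatctctatccacgtgggg
Tuba1b: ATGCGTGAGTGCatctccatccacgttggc
Tuba1c: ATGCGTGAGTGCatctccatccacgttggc
Tubb5: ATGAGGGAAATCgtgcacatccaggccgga
Tubb3: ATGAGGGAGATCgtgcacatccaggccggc
Tubb4b: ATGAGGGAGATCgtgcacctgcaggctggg
Tubg1: ATGCCGAGAGAAatcatcaccctacagttg

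The start codons of Tuba3a and Tuba3b lie on chromosome 6 (first base 125285970, minus strand, and 145616087, plus strand), those of Tuba1b and Tuba1c on chromosome 15 (98934335, minus, and 99030422, plus), and those of Tubb5, Tubb3 and Tubb4b on chromosomes 17 (35838053, minus), 8 (123411606, plus) and 2 (25224590, minus). The windows of Tuba3a and Tuba3b were identical over all 30 bases, as were those of Tuba1b and Tuba1c. Because tubulin genes are close copies of each other and only uniquely mapped reads were kept, the division of reads within such a pair is uncertain. Tuba1a, not shown, has the same first 4 codons as Tuba1b and Tuba1c but changed by -0.66, against -1.89 and -1.38. Tuba4a (-0.59) and Tuba8 (0.52), also not shown, were not called, and Tubg1 was itself called lower (-0.76). Whether the start sequence goes with the change was not tested.

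Over all members, 5271 (33.2%) were called higher with rotenone and 1657 (10.4%) lower at an adjusted p under 0.05 (limma on log2(TPM + 1), with Benjamini-Hochberg adjustment over the 17638 genes tested), and 8964 were not called (43.6% called in either direction). The groups did not overlap for 52.7% of members, higher with rotenone, and 22.9%, lower. Changes below are log2 differences of TPM + 1, rotenone minus control, with n = 2 libraries a group, and are written as the change ± its standard error (SE) with the adjusted p. The median SE was 0.19. Such changes understate the shift of genes with few TPM. The median change of all members was 0.29, so a list has to be read against that value and against the shares just given. In 868 members only the rotenone libraries reached 1 TPM, in both of them (682 called higher), and in 211 only the control libraries did (120 called lower); these genes entered through the group where they were high. TPM keeps no read counts, so depth is unknown.

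The changes went with exon length. Protein-coding members were cut into 5 bins of equal size by exon length, and from the shortest to the longest bin the median change was -0.15, 0.11, 0.32, 0.51 and 0.77, and the control libraries, control 1 above all, were low for long transcripts. With this trend removed, calls were 2709 higher and 3031 lower, with median-ratio scaling 3678 and 3027, and with quantile normalization 2969 and 3011; the share of calls that were higher was 76.1% as reported and 47.2%, 54.9% and 49.6% under these settings, and the median of all members fell to -0.02, 0.05 and -0.01. The part of transcript length in the results was not tested beyond these settings, of which the length correction is quoted for most of the lists below and the others where they change a reading. Single libraries weighed on the number of calls: without control 1 there were 3197 higher and 1017 lower, without control 2 6075 and 1749, without rotenone 1 2141 and 637, and without rotenone 2 2432 and 625.

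**Figure D1:**
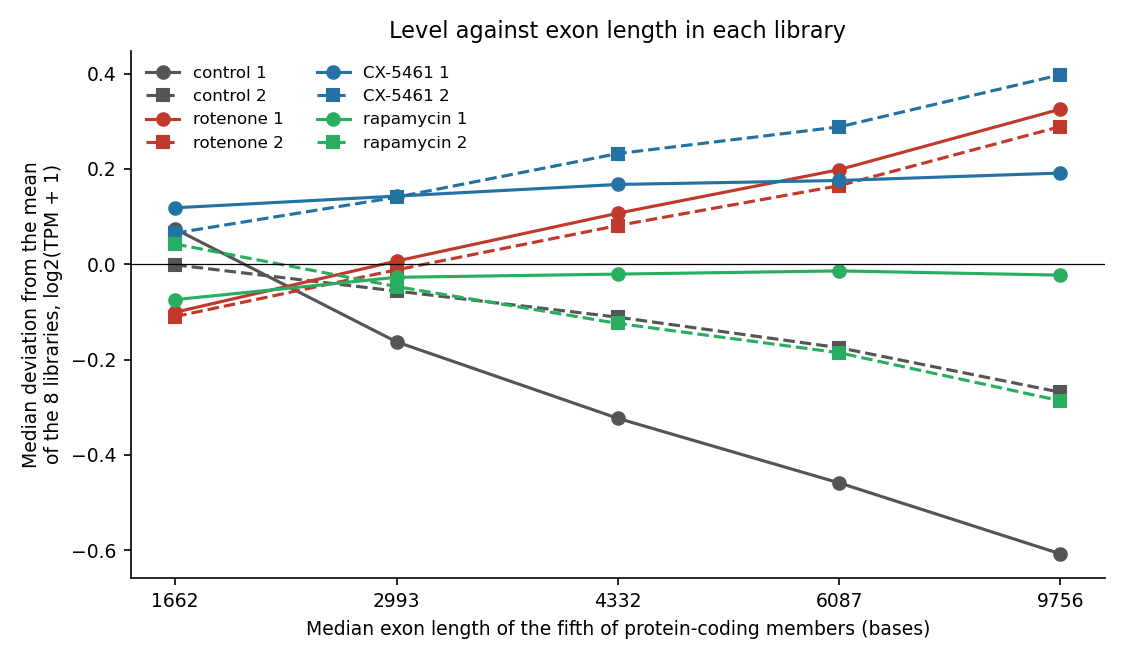
Median deviation of each library from the mean of the 8 mES libraries, in log2(TPM + 1), for 5 equal bins of the protein-coding members by exon length (x axis: median exon length in bases; solid lines with circles, replicate 1; dashed lines with squares, replicate 2). Control 1 falls from 0.07 in the shortest to -0.61 in the longest bin, and the rotenone libraries rise from -0.10 and -0.11 to 0.33 and 0.29.

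As markers of ES cells, 33 core and naive pluripotency genes summed to 10722 and 11359 TPM in control and 9812 and 9842 TPM with rotenone. The sum was 7964 and 8328 TPM with CX-5461 and 11620 and 11270.5 TPM with rapamycin. Single genes went both ways, with 7 called higher and 10 lower than control. Pou5f1, the gene of the core pluripotency factor OCT4, went from 1631 and 1649.5 to 1380.2 and 1395 TPM (-0.24 ± 0.07, adjusted p = 0.0322). Markers of fibroblasts, the feeder cell type, moved with the treatment. Of 42 such genes 40 were called higher and 0 lower, with a median change of 1.69; their summed level was 2771 and 3204 TPM in the control libraries and 7727 and 8149.7 TPM with rotenone. The defining markers Col1a1, Col1a2, Col3a1, Thy1, Twist2 and Prrx1 were all above 7 TPM in every library, and all were called higher with rotenone. The sum was 8822 and 9398 TPM with CX-5461 and 4916 and 4349 TPM with rapamycin. The part of feeder RNA in the rises described below was not tested; fewer cells of a type and less RNA per cell cannot be told apart in bulk samples. Against CX-5461, where the fibroblast sums lay close, 1 marker was called higher with rotenone and 6 lower, and lists are therefore also given against CX-5461 (over all members 867 or 5.46% called higher and 2303 or 14.5% lower with rotenone, 19.9% in all).

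**Figure D2:**
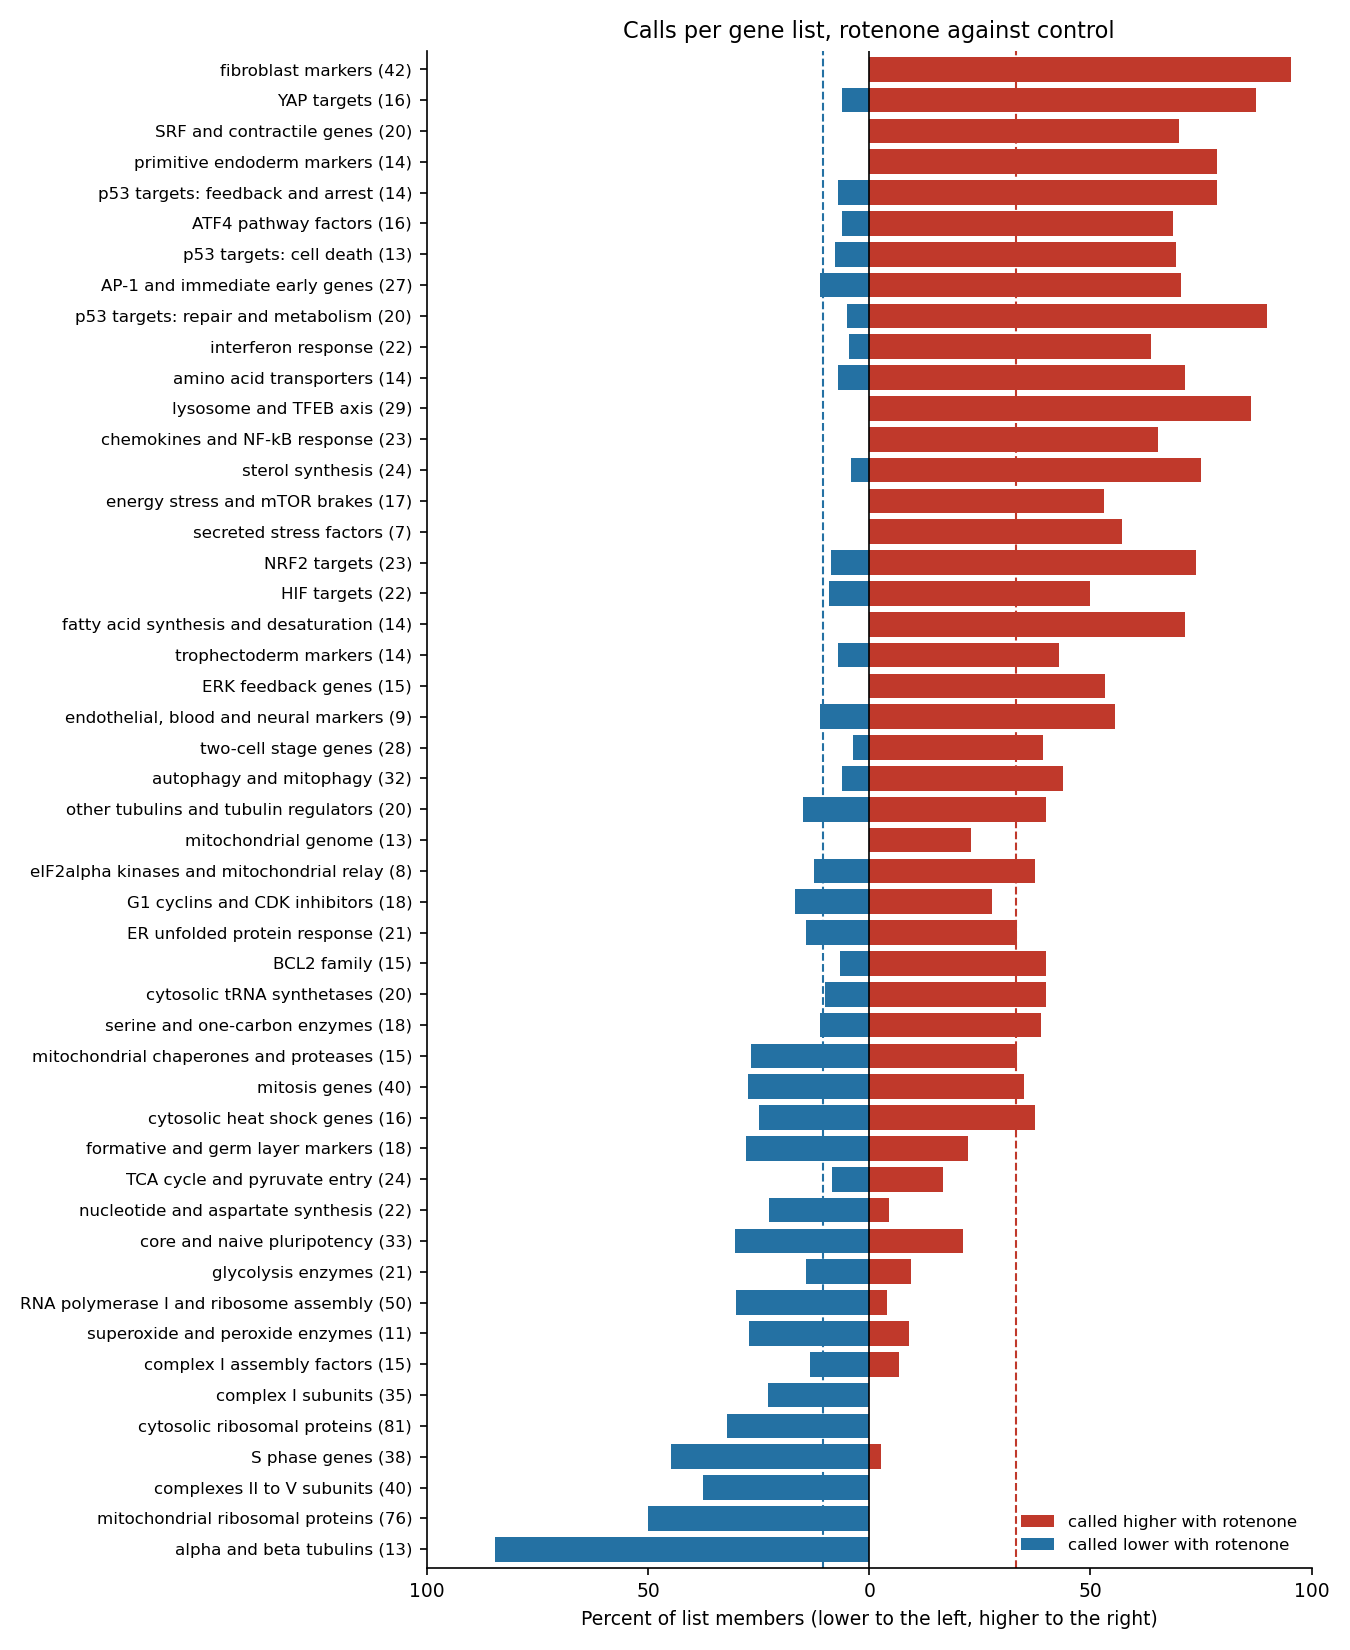
Percent of the members of each of the 49 gene lists that were called higher (red, to the right) or lower (blue, to the left) with rotenone against control; numbers of members in parentheses, lists ordered by median log2 change. Dashed lines mark the shares over all members, 33.2% higher and 10.4% lower; alpha and beta tubulins stand at the lower end and fibroblast markers at the upper end.

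Alpha and beta tubulin genes were lower with rotenone. Of 16 annotated genes 13 were members, of which 11 fell, none rose, and 2 were not called; the median change was -1.16. Between 11 and 12 members were called lower, and none higher, under length correction, median-ratio scaling, quantile normalization and each omission of a library.

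Tuba3a, an alpha-tubulin gene best known from testis, went from 518 and 508 to 37 and 38.1 TPM, a 13.7-fold fall of the mean (-3.74 ± 0.08, adjusted p = 1.08e-05). Its levels were 189.8 and 183 TPM with CX-5461 and 533 and 573 TPM with rapamycin. The rotenone libraries were thus the lowest of the 8, the CX-5461 libraries intermediate, and the control and rapamycin libraries high. A non-coding gene model lies on the opposite strand of Tuba3a, and since no source states a strand-specific count, reads of a gene and of an antisense partner cannot be told apart here or elsewhere below. Tuba3b, its close copy, went from 15.8 and 15.2 to 2.55 and 2.23 TPM (-2.28 ± 0.18, adjusted p = 0.000597).

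The most abundant isotypes of mES cells fell almost as clearly. Tubb5, the major beta-tubulin gene of dividing cells, went from 1834 and 1951 to 507 and 505 TPM (-1.90 ± 0.07, adjusted p = 7.4e-05). Tuba1b, the major alpha-tubulin gene, went from 1484 and 1450.2 to 403 and 389 TPM (-1.89 ± 0.07, adjusted p = 7.4e-05). In both genes all rotenone libraries lay below every other mES library: CX-5461 gave 1116 and 1102 TPM for Tubb5 and 823 and 821 TPM for Tuba1b. Tuba1c, another widely expressed alpha isotype, went from 517 and 561 to 214 and 199 TPM (-1.38 ± 0.08, adjusted p = 0.000415). Tubb4b, a beta isotype of dividing and ciliated cells, went from 984 and 978 to 448 and 427 TPM (-1.16 ± 0.07, adjusted p = 0.000373).

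Tubb3, the isotype used as a neuronal marker, went from 114 and 114 to 29.8 and 25.4 TPM (-2.01 ± 0.11, adjusted p = 0.00035), whereas with CX-5461 it stayed at 115 and 109 TPM. Tubb2a and Tubb2b, further neuron-enriched beta isotypes, fell by 0.97 and 1.11. Tuba1a (-0.66) and Tubb6 (-0.51) fell least; Tubb6 went from 170.3 and 172 to 122 and 117 TPM and was at 285 and 274 TPM with CX-5461. Tuba4a was at 75.2 and 83.9 TPM in control and 51.6 and 53.3 TPM with rotenone (-0.59 ± 0.21, adjusted p = 0.0643) and Tuba8 at 1.73 and 0.959 TPM and 2.07 and 2.59 TPM (0.52 ± 0.23, adjusted p = 0.105); neither was called. Tubal3, Tubb1 and Tubb4a did not reach the level of a member.

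**Figure D3:**
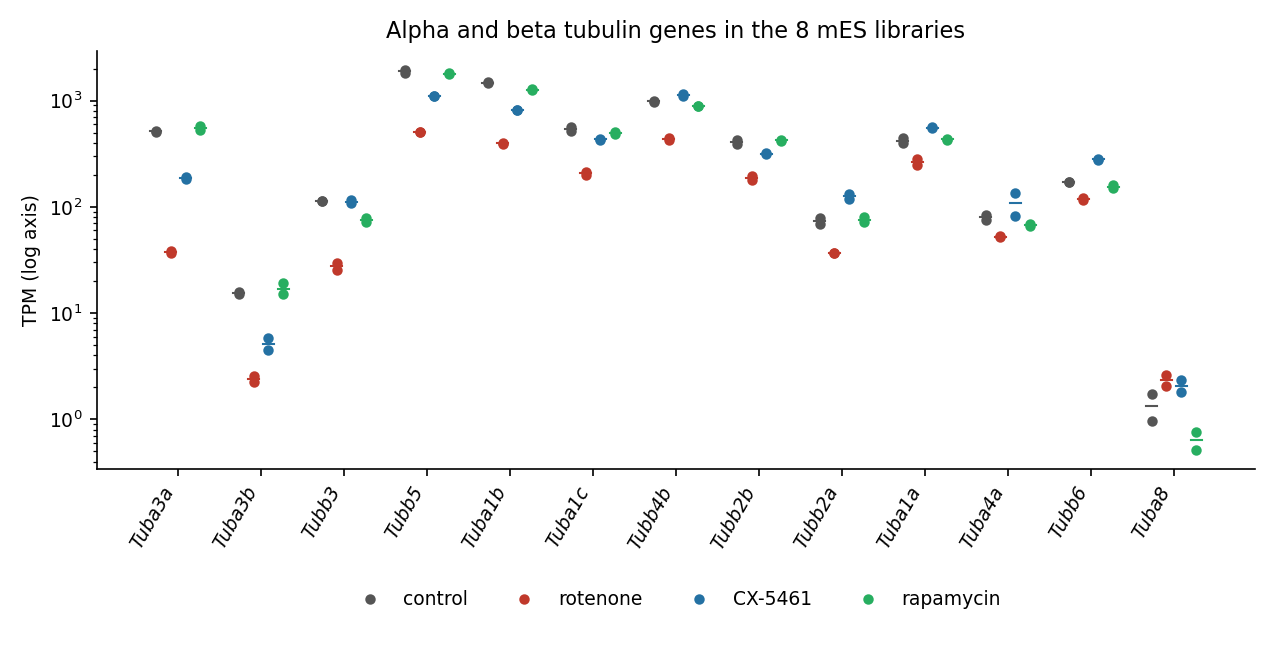
TPM (log axis) of the 13 alpha and beta tubulin members in the control, rotenone, CX-5461 and rapamycin libraries of mES cells; each point is a library and each bar a group mean, and genes are ordered by log2 change. In Tuba3a the rotenone points lie at 37.0 and 38.1 TPM against 518 and 508 TPM in control, and in every gene but Tuba8 the rotenone points lie below both control points.

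The levels also lay below those of the other treatments. Against CX-5461 12 of 13 tubulin members were called lower with rotenone and 0 higher (median -1.07), and against rapamycin 11 lower and 1 higher (median -1.16). Genes that act on tubulin did not move one way: of 20 regulators and other tubulins 8 rose and 3 fell (median 0.40; with the length trend removed 3 rose and 5 fell; against CX-5461 2 were higher and 2 lower). Tubg1 went from 108 and 109.5 to 62.7 and 64.9 TPM (-0.76 ± 0.09, adjusted p = 0.00186), but its level did not differ detectably from that with CX-5461 (-0.06, adjusted p = 0.681). Ttc5, the factor that in human cells recognises new tubulin chains, was at 65.9 and 71.1 TPM in control and 67.6 and 63.7 TPM with rotenone (-0.06, adjusted p = 0.69). Among the risers were Stmn4, a stathmin that sequesters tubulin dimers, which went from 4.98 and 3.94 to 11.3 and 10.8 TPM (1.15 ± 0.19, adjusted p = 0.00471). Map1b, a microtubule-binding protein gene, went from 14 and 17 to 35.5 and 34.1 TPM (1.12 ± 0.20, adjusted p = 0.00637). Ckap5, a microtubule polymerase gene, rose by 1.06, and Arhgef2, a microtubule-associated exchange factor gene, by 1.05.

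Nuclear genes of the target complex itself were mostly below control, by small amounts. In 24 of 35 subunit members both rotenone libraries lay below both control libraries, against 22.9% of all members. Of 35 nuclear complex I subunit members 8 fell and 0 rose (median -0.27; 16 fell with median-ratio scaling); without a single library the number that fell ranged from 0 to 14, highest without control 2 and lowest without rotenone 1. With the length trend removed 11 subunit genes fell and 0 rose. Ndufs7, a subunit of the arm that hands electrons to ubiquinone, went from 227 and 159 to 108 and 114 TPM (-0.77 ± 0.18, adjusted p = 0.0171). Ndufa5 went from 121 and 113 to 72.4 and 80.8 TPM (-0.61 ± 0.11, adjusted p = 0.00699), Ndufv3 fell by 0.59 and Ndufb8 by 0.58. The CX-5461 libraries were as low as the rotenone libraries: 113 and 109 TPM for Ndufs7, and over the list 1 member was called higher and 1 lower with rotenone than with CX-5461. Of 15 assembly factors of complex I 1 rose and 2 fell (1 and 4 with the length trend removed; 1 higher and 2 lower against CX-5461); Ndufaf6 went from 54.1 and 47.1 to 31.8 and 30.1 TPM (-0.69 ± 0.14, adjusted p = 0.00897). Tmem186 went from 9.26 and 10.3 to 15.7 and 15.5 TPM (0.63 ± 0.14, adjusted p = 0.0126).

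Nuclear subunits of complexes II to V followed the same pattern, with 15 of 40 lower and 0 higher (median -0.38; from 1 to 24 lower when 1 library was left out, fewest without rotenone 1 and most without control 2). With median-ratio scaling 26 fell and with the length trend removed 16, and 4 members were higher and 0 lower than with CX-5461. Atp5j, a subunit of the ATP synthase stalk, went from 481 and 399.5 to 272 and 258 TPM (-0.73 ± 0.16, adjusted p = 0.0131). Atp5g1, a gene of its membrane ring, went from 801 and 669 to 451 and 435 TPM (-0.72 ± 0.15, adjusted p = 0.0111). Cyc1, the cytochrome c1 gene, went from 455 and 430.3 to 290.4 and 301 TPM (-0.58 ± 0.09, adjusted p = 0.00369). Of 76 mitochondrial ribosomal protein genes, whose products translate the mitochondrial mRNAs, 38 fell and none rose (median -0.42). The number that fell was 50 with the length trend removed and 50 with quantile normalization, and from 7 to 50 without a single library, fewest without rotenone 2. Mrpl40 went from 213 and 173 to 91.1 and 101 TPM (-0.99 ± 0.14, adjusted p = 0.00283). Mrps36 went from 176 and 138 to 81 and 82.3 TPM (-0.93 ± 0.19, adjusted p = 0.00959). With CX-5461 Mrpl40 was at 95.8 and 91.4 TPM, and 2 members of the list were called lower and 0 higher with rotenone than with CX-5461.

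The 13 protein-coding genes of mitochondrial DNA did not fall with the nuclear ones: 3 rose, none fell, and the median was 0.39. mt-Nd5, a proton-pumping subunit of complex I, went from 1370.4 and 1418 to 2385 and 2519.8 TPM (0.81 ± 0.07, adjusted p = 0.000902). mt-Co1, the catalytic subunit of complex IV, went from 7563 and 8080.5 to 10032 and 10419.6 TPM (0.39 ± 0.06, adjusted p = 0.00481), although with median-ratio scaling (0.11) and quantile normalization (0.00) it was not called. mt-Atp8 went from 72.8 and 40.1 to 128 and 105 TPM (1.09 ± 0.27, adjusted p = 0.02); it overlaps mt-Atp6, and mt-Nd5 overlaps mt-Nd6 on the opposite strand. The control libraries disagreed here: mt-Nd4 was at 2159 and 13.4 TPM and mt-Atp6 at 139 and 14.4 TPM in control 1 and 2. Without control 1 8 genes were called higher and 0 lower, and without control 2 4 higher and 5 lower; 1 was higher than with CX-5461.

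**Figure D4:**
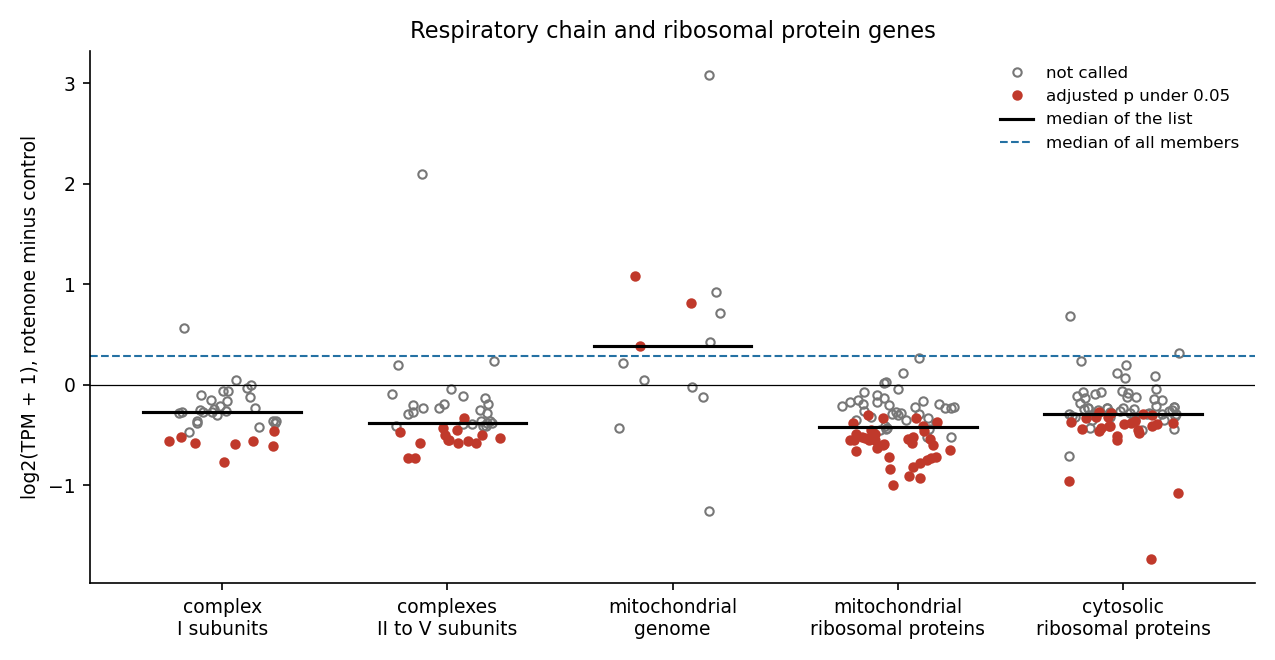
Change in log2(TPM + 1), rotenone minus control, of each member of 5 lists (filled, adjusted p under 0.05; open, not called; black bar, median of the list; dashed line, median of all members at 0.29). The nuclear-encoded lists lie mostly below 0, with medians of -0.27, -0.38, -0.42 and -0.28, and the mitochondrial genome has a median of 0.39.

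Of 81 cytosolic ribosomal protein genes 26 fell and 0 rose (median -0.28), but with quantile normalization 3 rose and 8 fell, and without a single library from 4 to 49 fell, fewest without rotenone 1. With the length trend removed 1 rose and 29 fell. Rpl17 stood apart, going from 1316 and 1169 to 313 and 444 TPM (-1.73 ± 0.16, adjusted p = 0.000902), below all other mES libraries. Against CX-5461 18 members of this list were called higher and 1 lower with rotenone. Of 50 genes of RNA polymerase I and ribosome assembly 15 fell and 2 rose. With the length trend removed 27 fell and 0 rose, without a single library from 5 to 14 fell (fewest without either rotenone library) and from 0 to 8 rose (most without control 2), and 5 were higher and 1 lower than with CX-5461. Polr1e, a polymerase I subunit gene, went from 54.7 and 46.3 to 26.6 and 34.2 TPM (-0.72 ± 0.17, adjusted p = 0.0153) and Cd3eap, another, from 55.6 and 51.6 to 32.8 and 30.9 TPM (-0.73 ± 0.10, adjusted p = 0.00327).

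Genes of the ATF4 pathway rose. Of 16 factors 11 were called higher, 1 lower and 4 neither, with a median change of 1.03; the counts were 11 and 1 with the length trend removed, 12 and 0 with quantile normalization, and from 8 to 12 were higher without a single library. ATF4 binds C/EBP-ATF response elements. The core TGATGNAAN, searched on both strands from 250 bases before to 50 after the RefSeq start sites (GRCm38.p6), was found in 6 of the 15 pathway genes present in that table (40%) and in 4.5% of all 27025 genes. Windows around the upstream matches are shown with the match in capitals, since the values of these genes are described next; Slc7a11, a cystine transporter gene with a further match that is not shown, was added from the list of amino acid transporters, and in all others the capitals read as the reverse complement of the core.
Atf3: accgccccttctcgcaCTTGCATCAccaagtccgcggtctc
Nupr1: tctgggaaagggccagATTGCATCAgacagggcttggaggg
Vldlr: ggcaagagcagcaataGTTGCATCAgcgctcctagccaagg
Herpud1: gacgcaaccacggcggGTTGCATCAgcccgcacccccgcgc
Chac1: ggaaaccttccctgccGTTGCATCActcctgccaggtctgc
Slc7a11: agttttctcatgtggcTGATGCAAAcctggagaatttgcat

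On GRCm38 these windows are chr1:191183420-191183460 (minus strand), chr7:126625557-126625597 (minus), chr19:27216803-27216843 (plus), chr8:94386300-94386340 (plus), chr2:119351032-119351072 (plus) and chr3:50443655-50443695 (minus). The matches begin 111, 111, 201, 113, 194 and 66 bases before the start site. The sixth pathway gene, Trib3, has its match just after the start site. A match is a description of the sequence and does not show that the site is used.

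The stress-induced transcription factor gene Atf3 went from 14 and 16 to 47.4 and 39.5 TPM (1.47 ± 0.14, adjusted p = 0.000902), and with CX-5461 it was higher still, at 83.9 and 86.5 TPM (rotenone against CX-5461 -0.96, adjusted p = 0.00361). Ddit3, which encodes CHOP, a factor of the terminal stress response, went from 50.1 and 45.6 to 129.6 and 132 TPM (1.43 ± 0.12, adjusted p = 0.000597); it is annotated under more than one gene ID, and Mars lies on its opposite strand. Ddit4, an inhibitor of mTOR signalling, rose most in the list, from 46.7 and 56.4 to 182 and 187 TPM (1.82 ± 0.12, adjusted p = 0.000443). All rotenone libraries of these genes lay above all control libraries, and for Ddit3 they coincided with those of CX-5461, 131 and 140.3 TPM.

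Other members separated rotenone from the remaining treatments. Trib3, a pseudokinase gene that feeds back on the pathway, went from 43.9 and 42.1 to 92 and 98.1 TPM (1.13 ± 0.11, adjusted p = 0.00101), while it was at 35.8 and 32.3 TPM with CX-5461 and 29.5 and 28.1 TPM with rapamycin. Nupr1, a stress-induced chromatin protein gene, went from 126 and 99.6 to 166 and 163 TPM (0.54 ± 0.13, adjusted p = 0.016) and was at 59 and 55.2 TPM with CX-5461. Herpud1, a gene of ER-associated degradation, went from 27.2 and 31.9 to 48.2 and 54.6 TPM (0.78 ± 0.13, adjusted p = 0.00525) against 29.6 and 29.1 TPM with CX-5461. In all these genes the rotenone libraries were the highest of the 8, and the differences from CX-5461 were called (Trib3 1.45, adjusted p = 0.000462; Nupr1 1.51, adjusted p = 0.000673; Herpud1 0.78, adjusted p = 0.00663).

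Chac1, which degrades glutathione, was at 23.5 and 21.1 TPM in control and 27 and 31.9 TPM with rotenone (0.38 ± 0.20, adjusted p = 0.171), not a call, but was at only 4.8 and 6.86 TPM with CX-5461 (2.17, adjusted p = 0.000917). Atf5, a factor linked to the mitochondrial stress response, went from 94.5 and 99.9 to 201 and 216 TPM (1.09 ± 0.23, adjusted p = 0.0121). Sesn2, a sestrin that senses leucine for mTORC1, went from 91.5 and 116 to 245 and 249.5 TPM (1.26 ± 0.14, adjusted p = 0.00141). Vldlr, a lipoprotein receptor gene, went from 2.59 and 5.94 to 12.2 and 17.8 TPM (1.66 ± 0.34, adjusted p = 0.0107). Cebpg, a dimer partner of ATF4, rose by 0.97 and Nfil3 by 1.27. Atf4 mRNA itself was at 304 and 342 TPM in control and 378 and 374 TPM with rotenone (0.22 ± 0.08, adjusted p = 0.074; -0.05 with median-ratio scaling), Ppp1r15a, the eIF2alpha phosphatase subunit, at 67.1 and 81.5 against 90.3 and 105 TPM (0.39, adjusted p = 0.196), and Cebpb at 13.4 and 21.9 against 16.8 and 23.2 TPM (0.19, adjusted p = 0.624; -0.06 and -0.23 with median-ratio scaling and quantile normalization); none of these was called. Eif4ebp1, a repressor of cap-dependent translation, was the member that fell (from 591 and 503 to 413 and 414 TPM; -0.40 ± 0.11, adjusted p = 0.0304). Over the list 6 members were called higher and 2 lower than with CX-5461, and 13 higher and 0 lower than with rapamycin (over all members 2594 or 16.3% higher and 1047 or 6.59% lower).

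**Figure D5:**
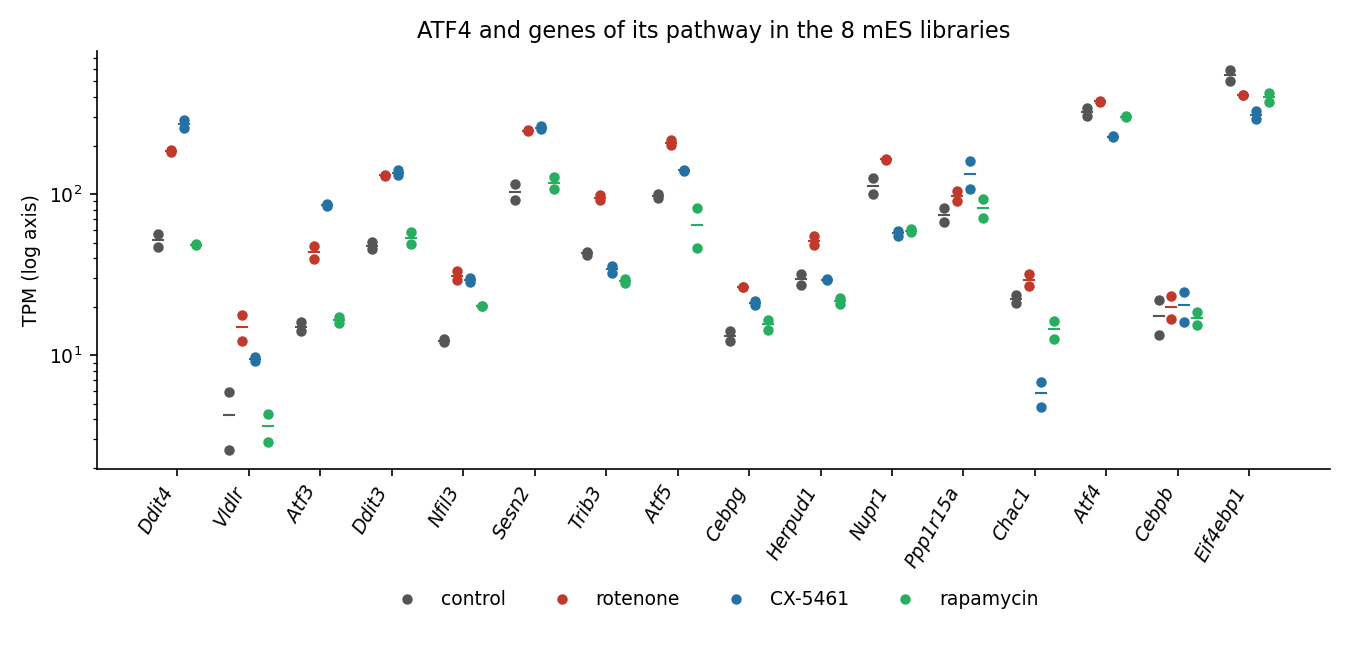
TPM (log axis) of Atf4 and 15 further genes of its pathway in the control, rotenone, CX-5461 and rapamycin libraries of mES cells; points are libraries, bars group means, genes ordered by log2 change. Ddit4 leads at 182 and 187 TPM with rotenone against 46.7 and 56.4 TPM in control, and in Trib3, Nupr1 and Herpud1 the rotenone points lie above those of every other group.

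The kinases and the mitochondrial relay upstream of ATF4 showed small shifts: 3 of 8 genes were called higher and 1 lower, but with the length trend removed 0 were higher and 2 lower, and against CX-5461 1 was higher and 0 lower. Eif2ak1, the gene of HRI, was at 39.8 and 43 TPM in control and 41.9 and 43.1 TPM with rotenone (0.04, adjusted p = 0.836), Dele1 at 40.6 and 42.8 against 48.6 and 49.1 TPM (0.22, adjusted p = 0.106). Eif2ak3, which encodes the ER kinase PERK, went from 12.9 and 16.7 to 22.5 and 20.8 TPM (0.53 ± 0.18, adjusted p = 0.0491). Eif2ak4, the amino acid sensor GCN2, went from 12.3 and 15.8 to 20.5 and 20.2 TPM (0.51 ± 0.16, adjusted p = 0.0413; -0.07 with the length trend removed). Among mitochondrial chaperones and proteases Oma1 went from 10.1 and 11.7 to 19 and 20.1 TPM (0.80 ± 0.13, adjusted p = 0.00532). The prohibitin gene Phb went from 414 and 379 to 264 and 261 TPM (-0.59 ± 0.09, adjusted p = 0.00376). Over that list 5 of 15 rose and 4 fell, against 1 and 6 with the length trend removed and 0 and 1 relative to CX-5461. The median of the list, 0.20, was below the 0.29 of all members.

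Genes of amino acid supply, a main output of ATF4, rose in part, mainly the transporters. Of 14 amino acid transporter genes 10 rose and 1 fell (median 0.79; 6 and 3 with the length trend removed; from 4 to 12 higher without a single library, fewest without either rotenone library). Slc6a9, a glycine transporter, went from 3.45 and 5.45 to 17 and 13.9 TPM (1.61 ± 0.27, adjusted p = 0.00537). Slc7a11, which imports cystine, went from 2.8 and 2.65 to 10.1 and 9.58 TPM (1.54 ± 0.17, adjusted p = 0.00142). Slc38a2, which takes up small neutral amino acids, went from 49.9 and 64.2 to 153 and 150.04 TPM (1.40 ± 0.14, adjusted p = 0.00123). Slc1a4 went from 6.64 and 24.6 to 38.3 and 39.7 TPM (1.52 ± 0.49, adjusted p = 0.0446), with the control libraries far apart. Against CX-5461 7 of these transporters were called higher and 3 lower with rotenone.

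Of 18 genes of serine synthesis, one-carbon metabolism and related amino acid synthesis 7 rose and 2 fell. Their median of 0.20 was below the 0.29 of all members, and with the length trend removed 6 rose and 3 fell. Aldh1l2, the mitochondrial enzyme that makes NADPH from formyl-tetrahydrofolate, went from 2.69 and 4.48 to 15 and 16 TPM (1.88 ± 0.21, adjusted p = 0.00144). Its cytosolic counterpart Aldh1l1 went from 18.6 and 23.5 to 46.9 and 50.6 TPM (1.18 ± 0.14, adjusted p = 0.0016). Gpt2, the mitochondrial alanine aminotransferase, went from 39 and 50.1 to 77.3 and 78.6 TPM (0.80 ± 0.16, adjusted p = 0.00944). Against CX-5461 the list stood higher: 10 were called higher and 2 lower with rotenone than with CX-5461 (median 0.57). The enzymes given next were chosen after their values were seen. Phgdh, the first step of serine synthesis, was at 192 and 195 TPM in control, 219.9 and 229 with rotenone and 93 and 80.2 with CX-5461 (against CX-5461 1.37, adjusted p = 0.000409). Psat1, the next step, was at 443 and 403 TPM in control, 337 and 442 with rotenone and 142 and 144 with CX-5461 (against CX-5461 1.42, adjusted p = 0.000912). Mthfd2, a mitochondrial folate enzyme, was at 123 and 141 TPM in control, 207 and 211 with rotenone and 66.3 and 61.7 with CX-5461, and rose against control (0.66, adjusted p = 0.00399). Asns, a gene of the same list with a match to the response element core, was called lower against control (-0.27, adjusted p = 0.04).

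Cytosolic tRNA synthetase genes were called higher in 8 of 20 cases and lower in 2, but with the length trend removed 0 rose and 6 fell. Their median of 0.21 was also below the 0.29 of all members. The bifunctional synthetase gene Eprs went from 139 and 192 to 266 and 268 TPM (0.70 ± 0.18, adjusted p = 0.0198; -0.26 with the length trend removed), and Lars went from 120.4 and 149 to 214 and 214 TPM (0.67 ± 0.15, adjusted p = 0.013). Against CX-5461 9 synthetases were called higher and 0 lower with rotenone. The response element core was found in 5 of the 13 synthetase genes in the promoter table, 3 of 10 transporter genes and 2 of 15 serine and one-carbon genes. Of 7 secreted stress factor genes 4 rose and 0 fell (3 higher and 1 lower than with CX-5461); Gdf15, a stress hormone that reduces appetite, went from 30.5 and 21.5 to 53.4 and 61.1 TPM (1.13 ± 0.18, adjusted p = 0.00427). Stc2, a stanniocalcin gene, went from 10.05 and 11.1 to 17 and 19.3 TPM (0.73 ± 0.16, adjusted p = 0.0125).

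Targets of NRF2, the transcription factor that answers oxidative and electrophilic stress, were called higher in 17 of 23 cases and lower in 2 (median 0.65; 12 and 2 with the length trend removed). Srxn1, which repairs oxidised peroxiredoxins, went from 53.1 and 53.8 to 179 and 172 TPM (1.69 ± 0.24, adjusted p = 0.00309). Nqo1, a quinone reductase, went from 59.7 and 57.2 to 141 and 134 TPM (1.22 ± 0.10, adjusted p = 0.000585). CX-5461 gave 169 and 182 TPM for Srxn1 and 201 and 189.9 TPM for Nqo1, as high as rotenone or higher, and over the list 1 target was called higher and 4 lower with rotenone than with CX-5461. Searched in the same windows on both strands, the core TGACNNNGC of the antioxidant response element lay in the promoter window of 7 of 19 targets and of 14% of all genes. Enzymes that remove superoxide and peroxide did not rise with them: 1 of 11 rose and 3 fell (5 fell with the length trend removed, and none without control 1 or either rotenone library). The catalase gene Cat was the riser (from 93.5 and 96.9 to 188 and 192 TPM; 0.99 ± 0.08, adjusted p = 0.000718) and was also above CX-5461 (0.47, adjusted p = 0.00862), whereas Sod1 went from 1642 and 1420.5 to 1146 and 1156 TPM (-0.41 ± 0.10, adjusted p = 0.0181).

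Of 21 glycolysis genes 2 rose and 3 fell, but with the length trend removed 1 rose and 9 fell. Against CX-5461 8 were called higher and 1 lower with rotenone. Ldha, the main lactate dehydrogenase gene, went from 1008 and 911 to 658 and 673 TPM (-0.53 ± 0.08, adjusted p = 0.00399). Slc16a1, a lactate transporter gene in the same list, went from 71.5 and 75.8 to 98.5 and 89.96 TPM (0.35 ± 0.10, adjusted p = 0.0282). Other targets of HIF, the hypoxia-inducible factor, were called higher in 11 of 22 cases and lower in 2 (median 0.60; 9 and 4 with the length trend removed; 5 higher and 3 lower than with CX-5461). Adm, which encodes the vasodilator adrenomedullin, went from 5.13 and 6.36 to 30.4 and 30.7 TPM (2.23 ± 0.15, adjusted p = 0.000488). Bhlhe40 went from 32.7 and 42.8 to 103 and 102 TPM (1.43 ± 0.14, adjusted p = 0.0012). The collagen hydroxylase gene P4ha2 went from 21.4 and 24.9 to 66.1 and 75.3 TPM (1.57 ± 0.15, adjusted p = 0.00102). The core ACGTG was present in the promoter window of 12 of 18 of these genes and of 21.8% of all genes. P4ha2 had it and was called higher, Ankrd37 had it and was called lower (-1.14), and Adm and Bhlhe40 were not among the genes with a match. In the tricarboxylic acid cycle 4 of 24 genes rose and 2 fell, but 2 and 12 with the length trend removed; 2 were higher and 1 lower than with CX-5461. Pcx, the pyruvate carboxylase gene, went from 13.1 and 17.4 to 40.5 and 38.3 TPM (1.33 ± 0.18, adjusted p = 0.00269). Mdh2, mitochondrial malate dehydrogenase, went from 663 and 601 to 427 and 426 TPM (-0.56 ± 0.08, adjusted p = 0.00334).

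Brakes of mTOR and the energy-sensing kinase AMPK were called higher in 9 of 17 cases and lower in 0 (median 0.71; 5 and 0 with the length trend removed; 0 higher and 3 lower than with CX-5461). Besides Ddit4 and Sesn2, Sesn3 went from 6.97 and 9.28 to 27.5 and 22.4 TPM (1.51 ± 0.20, adjusted p = 0.0027). Ddit4l, a relative of Ddit4, went from 8.04 and 8.31 to 25.2 and 24 TPM (1.48 ± 0.12, adjusted p = 0.000597), far below the 120.04 and 126 TPM with CX-5461. Lysosome genes rose in 25 of 29 cases and none fell (median 0.78; 18 and 1 with the length trend removed; from 18 to 25 higher without a single library; 2 higher and 4 lower than with CX-5461). Fnip2, which works with folliculin upstream of the lysosomal regulator TFEB, went from 11.9 and 14.9 to 49.5 and 48.8 TPM (1.81 ± 0.14, adjusted p = 0.000566) and was above the 23.2 and 23 TPM of CX-5461 (1.06, adjusted p = 0.00286). Its paralog Fnip1 went from 9.82 and 7.84 to 32.1 and 31.8 TPM (1.75 ± 0.15, adjusted p = 0.000698). Gpnmb, a lysosomal glycoprotein gene that is also abundant in several non-ES cell types, went from 10.02 and 13.4 to 63.3 and 63.9 TPM (2.36 ± 0.15, adjusted p = 0.000442). Of 32 autophagy genes 14 rose and 2 fell (7 and 5 with the length trend removed; 1 higher and 3 lower than with CX-5461). Gabarapl1, an autophagosome protein gene, went from 37.6 and 37.7 to 86.8 and 88.6 TPM (1.20 ± 0.09, adjusted p = 0.000585), whereas Calcoco2, an autophagy receptor gene, went from 300.1 and 279.6 to 88 and 82.6 TPM (-1.75 ± 0.10, adjusted p = 0.00035), below all other mES libraries.

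Sterol synthesis genes were called higher in 18 of 24 cases and lower in 1 (median 0.72; 12 and 2 with the length trend removed; from 8 to 19 higher without a single library, fewest without rotenone 2). Idi1, the isopentenyl isomerase, went from 21.3 and 35.2 to 83.7 and 73.6 TPM (1.48 ± 0.23, adjusted p = 0.00399). Lss, which closes the sterol rings, went from 24.7 and 34.4 to 59.8 and 63.8 TPM (1.06 ± 0.18, adjusted p = 0.0055) and was at 41 and 39 TPM with CX-5461. Against CX-5461 9 genes of this list were called higher and 0 lower with rotenone, and against rapamycin 9 and 0. Fatty acid synthesis genes rose in 10 of 14 cases and none fell. With the length trend removed 6 rose and 1 fell, without a single library from 2 to 11 rose (fewest without either rotenone library), and against CX-5461 1 was higher. Lpin1, a phosphatidate phosphatase gene, went from 8.15 and 13 to 43.6 and 42.9 TPM (1.96 ± 0.25, adjusted p = 0.00233). Acaca, acetyl-CoA carboxylase, went from 10.8 and 16.5 to 41.7 and 40.7 TPM (1.56 ± 0.31, adjusted p = 0.0093).

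In the unfolded protein response of the endoplasmic reticulum 7 of 21 genes rose and 3 fell, but 4 and 5 with the length trend removed. The share that rose was close to the 33.2% of all members, and the median of 0.25 was below their 0.29. Without a single library from 4 to 11 rose and from 0 to 2 fell, and 1 was higher and 6 lower than with CX-5461. The sensor gene Ern1, which encodes IRE1, went from 2.06 and 3.45 to 8.8 and 7.43 TPM (1.30 ± 0.28, adjusted p = 0.0125). Sel1l, a gene of ER-associated degradation, went from 13 and 15.8 to 46 and 33 TPM (1.38 ± 0.22, adjusted p = 0.00467). The chaperone gene Canx went from 263 and 261 to 521 and 517 TPM (0.98 ± 0.08, adjusted p = 0.000585). Cytosolic heat shock genes gave 6 rises and 4 falls among 16, with a median of 0.08, also below that of all members. With the length trend removed 4 rose and 6 fell, and 1 was higher and 5 lower than with CX-5461. Hspa1a went from 2.41 and 3.28 to 7.08 and 7.32 TPM (1.10 ± 0.16, adjusted p = 0.00361), against 30.7 and 29.6 TPM with CX-5461.

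Targets of p53, the tumour suppressor activated by DNA damage and nucleolar stress, rose, though less than with CX-5461. Among genes of feedback and cell cycle arrest 11 of 14 rose and 1 fell, among those of cell death 9 of 13 and 1, and among those of repair and metabolism 18 of 20 and 1; with the length trend removed the rises were 10, 6 and 14. None of these members was called higher than with CX-5461, and 9, 10 and 14 were called lower. Trp53inp1, a p53 cofactor gene, went from 54.5 and 48.7 to 233 and 217 TPM (2.10 ± 0.11, adjusted p = 0.000322), with 370.5 and 431 TPM under CX-5461. Pmaip1, which encodes the pro-apoptotic NOXA, went from 11.5 and 11.4 to 35.7 and 36.6 TPM (1.58 ± 0.11, adjusted p = 0.000488), with 171 and 162 TPM under CX-5461, and Perp, a desmosomal death effector gene, from 16.5 and 15 to 41.3 and 41 TPM (1.33 ± 0.12, adjusted p = 0.000902). Among BCL2 family genes 6 of 15 rose and 1 fell (4 and 1 with the length trend removed), and 2 were higher and 5 lower than with CX-5461. Bak1, a pore-forming death effector, went from 43.3 and 72.3 to 125 and 134 TPM (1.20 ± 0.22, adjusted p = 0.00699), above CX-5461 (0.95, adjusted p = 0.0226) but at or below the 178 and 161 TPM of rapamycin.

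Immediate early genes and the cytoskeletal programmes rose with the fibroblast markers, with which the lists share no gene. The lack of shared genes cannot separate these rises from feeder RNA, whose part was not tested. AP-1 and immediate early genes were called higher in 19 of 27 cases and lower in 3 (17 and 4 with the length trend removed), and 0 were higher and 13 lower than with CX-5461. Fosl1, an AP-1 subunit, went from 3.73 and 4.38 to 22.5 and 26.5 TPM (2.34 ± 0.16, adjusted p = 0.000478). Jun went from 29.2 and 40.1 to 119 and 116 TPM (1.75 ± 0.15, adjusted p = 0.000698). The AP-1 core TGANTCA was found in none of the 22 genes of this list in the promoter table and in 8.97% of all genes. Feedback genes of the kinase ERK, whose activator MEK is inhibited in 2i medium, rose in 8 of 15 cases and none fell. With the length trend removed 6 rose and 2 fell, without either rotenone library 3 rose, and 1 was higher and 7 lower than with CX-5461. Dusp4, an ERK phosphatase gene, went from 1.66 and 4.55 to 22.4 and 22.2 TPM (2.60 ± 0.36, adjusted p = 0.00301). Contractile and other targets of SRF, a factor driven by actin assembly, rose in 14 of 20 cases and none fell (median 1.30; 13 and 0 with the length trend removed), and 3 were higher and 2 lower than with CX-5461 (median -0.02). Smooth muscle actin Acta2 went from 98.6 and 81.4 to 391 and 402 TPM (2.13 ± 0.11, adjusted p = 0.000322). Tagln went from 41.3 and 38.1 to 178 and 189 TPM (2.18 ± 0.13, adjusted p = 0.000424). Both were among those above CX-5461 (Acta2 0.50, adjusted p = 0.0189; Tagln 0.54, adjusted p = 0.03). Targets of the Hippo effector YAP were called higher in 14 of 16 cases and lower in 1 (median 1.44; 10 and 1 with the length trend removed), and 0 were higher and 6 lower than with CX-5461. Ptpn14 went from 5.13 and 8.16 to 35.1 and 38 TPM (2.33 ± 0.21, adjusted p = 0.000902).

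Of the fibroblast markers, Lox, which cross-links collagen, went from 84.4 and 101 to 618 and 634 TPM (2.75 ± 0.11, adjusted p = 0.000104). Timp3 went from 16.7 and 22.1 to 99.8 and 105 TPM (2.36 ± 0.16, adjusted p = 0.000453). With rapamycin Lox was at 176 and 179 TPM. Genes of the NF-kB response rose in 15 of 23 cases and none fell, among them Csf1, a macrophage growth factor gene (from 10.3 and 11.7 to 52.1 and 60.1 TPM; 2.25 ± 0.13, adjusted p = 0.00035), and interferon response genes in 14 of 22 with 1 fall, among them Rsad2 (from 3.11 and 3.34 to 13.1 and 10.8 TPM; 1.61 ± 0.16, adjusted p = 0.0012). With the length trend removed 12 NF-kB and 10 interferon genes rose and 1 and 1 fell. Against CX-5461 none of these NF-kB or interferon genes was called higher and 10 and 11 were called lower with rotenone.

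Among S phase genes, falls prevailed. Of 38 members 17 were called lower and 1 higher (median -0.31); 27 were lower and 0 higher with the length trend removed, and from 9 to 19 were lower without a single library, fewest without rotenone 2. Ccne1, the cyclin that starts S phase, went from 241 and 249 to 126 and 119 TPM (-0.996 ± 0.08, adjusted p = 0.000597). Dscc1, a replication clamp loader gene, went from 37.4 and 32.5 to 18.7 and 18.3 TPM (-0.88 ± 0.13, adjusted p = 0.00391). Chaf1b, a chromatin assembly factor gene, went from 143 and 137 to 82.6 and 77.2 TPM (-0.80 ± 0.10, adjusted p = 0.00181). For Ccne1 the rotenone libraries were the lowest of the 8, with 177 and 176 TPM under CX-5461 and 223 and 216 TPM under rapamycin. Thymidylate synthase Tyms (from 102 and 83.5 to 53.2 and 49.3 TPM; -0.84 ± 0.13, adjusted p = 0.00417) was among the falls in a list of 22 genes of nucleotide and aspartate synthesis, of which 5 fell and 1 rose. With the length trend removed 14 fell and 1 rose. Against CX-5461 4 S phase genes were higher and 7 lower, and 1 nucleotide synthesis gene was higher and 2 lower.

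Mitosis genes split, with 14 of 40 higher and 11 lower (6 and 15 with the length trend removed; from 3 to 16 higher and from 6 to 11 lower without a single library; 10 higher and 6 lower than with CX-5461). Cdk1, the mitotic kinase, went from 123 and 123 to 54.9 and 55 TPM (-1.15 ± 0.10, adjusted p = 0.000809). In the other direction Hmmr, a spindle protein gene, went from 72.1 and 80.2 to 153 and 151 TPM (0.99 ± 0.12, adjusted p = 0.00186). Ect2, which positions the cleavage furrow, went from 66.7 and 69.4 to 148 and 135 TPM (1.04 ± 0.22, adjusted p = 0.0118). The kinetochore motor gene Cenpe went from 23.2 and 28.5 to 54.7 and 49.1 TPM (0.98 ± 0.20, adjusted p = 0.00978). Among G1 cyclins and CDK inhibitors 5 of 18 rose and 3 fell (1 higher and 8 lower than with CX-5461); Ccnd2 went from 17.8 and 23.7 to 75.3 and 78.3 TPM (1.85 ± 0.17, adjusted p = 0.000932). The inhibitor gene Cdkn2b went from 17.7 and 17.6 to 46.5 and 45.5 TPM (1.34 ± 0.10, adjusted p = 0.000597).

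Pluripotency genes were split as well: 7 of 33 rose and 10 fell, against 4 and 14 with the length trend removed and between 0 and 8 rises and 4 and 10 falls without a single library; 9 were higher and 5 lower than with CX-5461. Esrrb, a naive pluripotency factor, went from 71.1 and 141 to 398 and 381 TPM (1.95 ± 0.43, adjusted p = 0.0137), the control libraries lying far apart. Dppa3, a naive and germ cell marker, went from 76.6 and 54.6 to 20.7 and 28.5 TPM (-1.38 ± 0.22, adjusted p = 0.00451). Among formative and germ layer genes 4 of 18 rose and 5 fell (2 and 7 with the length trend removed; 0 higher and 9 lower than with CX-5461): Gsc, an organizer gene, went from 28.9 and 23.3 to 5.88 and 6.36 TPM (-1.92 ± 0.20, adjusted p = 0.00122). Otx2, a driver of the formative state, went from 4.57 and 5.27 to 1.25 and 1.1 TPM (-1.44 ± 0.16, adjusted p = 0.00141). Lefty1, a Nodal inhibitor, went from 25.2 and 24.7 to 10.9 and 13.1 TPM (-1.005 ± 0.12, adjusted p = 0.002). For Lefty1 both other treatments lay on the other side of control, at 49 and 50.5 TPM with CX-5461 and 42.2 and 44 TPM with rapamycin.

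Primitive endoderm markers rose in 11 of 14 cases and none fell, and 1 of the list is also a fibroblast marker; 7 rose with the length trend removed, and 1 was higher and 3 lower than with CX-5461. The lineage factor gene Gata6 went from 0.753 and 0.54 to 3.62 and 4.27 TPM (1.59 ± 0.17, adjusted p = 0.00144). It was a member only through the rotenone libraries, where it was high. The basement membrane gene Col4a1 went from 5.84 and 18.7 to 64.3 and 66.7 TPM (2.52 ± 0.47, adjusted p = 0.00783). Trophectoderm markers were called higher in 6 of 14 cases and lower in 1 (3 and 3 with the length trend removed; 2 higher and 6 lower than with CX-5461), led by the keratin gene Krt19 (from 4.66 and 4.13 to 16.6 and 14.3 TPM; 1.61 ± 0.15, adjusted p = 0.00101). The study asked whether such stress turns mES cells towards the state of the early embryo in which zygotic genes are first transcribed. Of 28 genes of that stage among the members 11 rose and 1 fell, 9 and 1 with the length trend removed, 4 and 4 with quantile normalization, and from 1 to 12 rises without a single library, fewest without rotenone 1. For comparison, 33.2% of all members were called higher. The summed level of the 34 listed genes was 681 and 697 TPM in control and 661 and 595 TPM with rotenone. With CX-5461 the sum was 1560 and 1522 TPM. Zscan4d, the best known marker of that stage, was at 13.3 and 18.1 TPM in control and 14.3 and 13 TPM with rotenone (-0.17 ± 0.16, adjusted p = 0.42) against 80.6 and 73.2 TPM with CX-5461. Gm12794 went from 1.16 and 1.48 to 4.7 and 4.14 TPM (1.23 ± 0.30, adjusted p = 0.018), and Duxf3 was listed at 0 in all control and rotenone libraries. The study, which tested read counts, reports no influence of rotenone on Zscan4d, Dux, Gm12794 or Pou5f1. Here, with limma on TPM, Gm12794 was called higher and Pou5f1 lower. Against CX-5461 none of the 28 members of the list was called higher and 25 were called lower with rotenone. Members of these families are near-identical copies, and uniquely mapped reads leave their values uncertain. Among markers of endothelium, blood and neurons 5 of 9 rose and 1, the tubulin gene Tubb3, fell (0 higher and 4 lower than with CX-5461). Neurod1 went from 0.157 and 0.128 to 3.29 and 3.34 TPM (1.92 ± 0.16, adjusted p = 0.000685), and like Gata6 it was a member only through the rotenone libraries.

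The largest changes were read among called genes that averaged 5 TPM or more in the group where they were higher, leaving aside small RNAs and gene models without a given name, which held most of the largest falls. Some of them fell on overlapping gene models. Nnt, the mitochondrial transhydrogenase gene, is held under a pair of overlapping gene IDs; the one with the largest rise was listed at 0 in both control libraries and at 24.8 and 27 TPM with rotenone, but at 22.8 and 0 TPM in the rapamycin libraries. Pet117, a complex IV assembly gene that overlaps Kat14, went from 15.3 and 25.2 to 0.000215 and 0.000284 TPM, and again the rapamycin libraries fell on both sides (0.000396 and 22.1 TPM). Mia3, a gene of collagen export from the endoplasmic reticulum, went from 0.431 and 2.19 to 24.8 and 64.7 TPM (4.27 ± 0.88, adjusted p = 0.0105) and was at 15.7 and 109.8 TPM with CX-5461 and 73.7 and 67.2 TPM with rapamycin. Mmp13, a collagenase gene, went from 5.58 and 7.54 to 114 and 54.8 TPM (3.42 ± 0.38, adjusted p = 0.00148), with 28.2 and 16 TPM under CX-5461 and 5.85 and 6.23 TPM under rapamycin, so the rotenone libraries were the highest of the 8. Prrg4 went from 0.728 and 2.04 to 24 and 22.8 TPM (3.41 ± 0.29, adjusted p = 0.000698). Usp39, a splicing factor gene, went from 1.71 and 1.28 to 20.4 and 33.6 TPM (3.45 ± 0.25, adjusted p = 0.000498). Pdzrn4 went from 0.202 and 0.14 to 8.96 and 8.35 TPM (3.04 ± 0.16, adjusted p = 0.000322), and was a member only through the rotenone libraries.

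Among the largest falls of such genes Tuba3a, Tuba3b and Tubb3 were joined by Msc, a transcriptional repressor gene, which went from 20.9 and 21.4 to 3.76 and 3.55 TPM (-2.25 ± 0.15, adjusted p = 0.000478) and was as low with CX-5461, 3.28 and 4.22 TPM. Tagln3, a neuronal actin-binding protein gene, went from 14.6 and 13.8 to 2.08 and 2.72 TPM (-2.17 ± 0.16, adjusted p = 0.000554). Crygd, a lens crystallin gene, went from 32.9 and 24 to 5.58 and 5.97 TPM (-2.10 ± 0.21, adjusted p = 0.00118). Cela2a, an elastase gene that overlaps Ctrc, went from 22 and 15.4 to 2.21 and 3.29 TPM (-2.39 ± 0.27, adjusted p = 0.00153). For Tagln3, Crygd and Cela2a the rotenone libraries were the lowest of the 8 and CX-5461 was intermediate (7.08 and 7.68 TPM for Tagln3, 14.2 and 13.3 TPM for Crygd and 7.41 and 7.06 TPM for Cela2a). Haus1, an augmin subunit gene that overlaps Atp5a1, and Coro1b, a coronin gene, were called lower with widely spread libraries: Haus1 went from 122 and 49.8 to 29.99 and 5.85 TPM, and Coro1b, which overlaps Ptprcap, from 78.9 and 39.2 to 11.4 and 7.24 TPM.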

How the data were processed

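Poly-A RNA from mES cells was sequenced, and per the study's methods and the labels the authors trimmed reads with Trimmomatic after CASAVA 1.8, aligned them to mm10 with HISAT2, removed duplicates with Picard, kept uniquely mapped reads and assembled GENCODE genes with StringTie; the strand setting of the counting is not given in the sources used here. The deposited values are TPM, scaled by the authors to a fixed total and to gene length, so read depth is unknown and counting error could not be given. Each library was rescaled to a sum of 1000000 TPM. A table of embryo libraries was not used here.

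Members were the genes with at least 1 TPM in 2 of the 4 control and rotenone libraries. limma 3.58.1 (R 4.3.3) was fitted to log2(TPM + 1) of all 8 mES libraries in 4 groups, with an intensity trend, over genes with at least 1 TPM in 2 of them; 4 residual degrees of freedom were shared by the groups, p-values are two-sided and adjusted by the Benjamini-Hochberg method over all genes tested, and a call is an adjusted p under 0.05. The method was tested on simulated data. The study itself tested read counts, which were not analysed here. The alternatives were other filters, a pseudocount of 0.1, median-ratio scaling, quantile normalization, removal of the exon length trend (lowess span 0.3), a replicate block, the 4 libraries alone and the omission of each library.

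The comparison and the gene lists were chosen with earlier results of these data known. Chosen for naming were the genes the study plots, the 12 largest rises and falls among called members with a given name (5 TPM or more on average where they were higher, small RNAs left aside), the 4 called members of each list with the largest change and at least 2 TPM, and all tubulin, ATF4 and upstream kinase genes. Some of these were left out of the text for length, among them the large rises of Jmjd1c, Ablim1, Pakap, Hist1h4m, Atp2b4 and Hyal1. Phgdh, Psat1, Mthfd2, Asns, Ttc5, Tubg1, mt-Nd4 and mt-Atp6 were chosen after their values were seen. Gene positions come from GENCODE M21 on GRCm38, which matched 53620 gene IDs and missed 95, and promoter windows from RefSeq on GRCm38.p6. A planned comparison of tubulin proteins was replaced by their first coding bases.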

Additional observations from a re-analysis of the deposited data

How the results depend on the processing

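Against control, 6928 members were called in all, 5271 higher and 1657 lower. A minimum change of 1 on the log2 scale left 2751 (2402 higher, 349 lower). Fitting the 4 libraries alone left 4857, of which 1091 were lower. Removal of the exon length trend gave 2709 higher and 3031 lower calls, median-ratio scaling 3027 lower and quantile normalization 2969 higher and 3011 lower; of the calls as reported, 4244 of 6922, 5335 of 6928 and 4480 of 6928 were still called in the same direction, and 12 were called in the opposite direction after removal of the length trend. Without a single library the total ranged from 2778 (without rotenone 1) to 7824 (without control 2), the higher calls from 2141 to 6075 and the lower calls from 625 to 1749; a lone library was then assumed to vary like the other groups. Calls against CX-5461 numbered 3170 and ranged from 1321 to 1412 without a single library, and those against rapamycin 3641 and from 659 to 2193. With a filter on the mean or a pseudocount of 0.1 none of 232 results for single genes changed direction, nor did any of the 225 left by a filter of 5 TPM.

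Direction reversed in few of these results. Without a single library Zscan4d ranged from -0.383 to 0.0337, Cebpb from -0.14 to 0.53 and Eif2ak1 from -0.0183 to 0.0898. Median-ratio scaling gave Atf4 -0.0523, Cebpb -0.0646, Eif2ak1 -0.23, Dele1 -0.0442 and Eif2b5 -0.13. Quantile normalization gave Cebpb -0.23, Eif2ak1 -0.26, Dele1 -0.0525 and Tubb4a -0.21. Without the length trend Eif2ak4 was -0.0702, Eif2ak1 -0.42, Dele1 -0.36, Eprs -0.26 and Lrp2 -0.14. The cause was not tested.

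With the replicate number as a block, 5750 members were called (4426 higher, 1324 lower), 2291 against CX-5461 and 2494 against rapamycin. The labels do not say whether equal numbers mark pairs. The deviations of control and rotenone libraries of the same number correlated at -0.02, and over all pairs of groups the correlations lay between -0.30 and 0.17. With 2 libraries a group such correlations cannot decide it.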

Other observations

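Several tRNA genes of the mitochondrial genome, chosen after their values were seen, were higher with rotenone. The histidine tRNA gene mt-Th went from 38.3 and 29 to 273.5 and 262 TPM (log2 change 2.97), and the rotenone libraries were the highest of the 8. It was also above control with rapamycin (193 and 113 TPM) and CX-5461 (85.4 and 109 TPM). The neighbouring mt-Ts2 (3.00) and mt-Tl2 (2.44), and mt-Tr (3.24), mt-Tg (2.89), mt-Tv (1.38) and mt-Tk (0.90), were also called higher than control by limma. Against rapamycin, mt-Tg, mt-Tr and mt-Tk were called higher with rotenone, while mt-Th, mt-Ts2, mt-Tl2 and mt-Tv were not called. Against CX-5461, all of these but mt-Tv were called higher. In control, mt-Tr (0.58 and 0.22 TPM) and mt-Tk (0.67 and 0 TPM) were under 1 TPM, so they became members through the rotenone libraries. The remaining mitochondrial tRNA members were not called, with changes from -1.01 (mt-Tt) to 1.82 (mt-Tp). Over all members 33.2% were called higher. The leucine tRNA gene mt-Tl1, the most abundant mitochondrial tRNA and not called, stood at 861 and 875 TPM in control and 674 and 827 TPM with rotenone. Small nucleolar RNAs, also chosen after their values were seen, went the other way: of 153 members 57 were called lower and 17 higher, against 10.4% lower over all members. Against CX-5461 only 8 were called lower and 8 higher with rotenone (over all members 14.5% lower and 5.46% higher). Against rapamycin 59 were called lower and 9 higher (over all members 6.59% and 16.3%). Mature tRNAs and small nucleolar RNAs are not what poly-A selection is meant to capture.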
